A study of Mus musculus with 6 samples.

Results

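The genes for respiratory complex I were followed in RAW264.7 cells, a macrophage-like line from mouse with the wild-type genotype by its label, after 24 h with 4 μg/mL SKI-II or with an equal volume of DMSO, its vehicle. SKI-II was developed as a small-molecule inhibitor of sphingosine kinase. Each group had 3 RNA-seq libraries of poly(A)-selected RNA, and the labels do not say whether these came from separate cultures, so p-values measure only the spread between these libraries. A gene was taken when its symbol in the GENCODE M21 annotation of GRCm38 begins with Nduf, apart from pseudogenes whose symbol ends in -ps. Of the 49315 genes in the count table, 48 taken in this way are described, 45 of them annotated as protein coding and 3 as processed pseudogenes. They fall into 6 nuclear core subunits, 34 accessory genes and 8 assembly factors, whose symbols begin with Ndufaf. The mitochondrial genome encodes further core subunits, which are described after the nuclear genes.

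Complex I is the entry point of electrons from NADH into the respiratory chain. Its matrix arm takes the electrons from NADH onto a flavin and passes them along a chain of iron-sulfur clusters to ubiquinone, and its membrane arm pumps protons across the inner mitochondrial membrane. The core subunits carry out this chemistry and have counterparts in bacteria, the accessory subunits surround and stabilize them, and the assembly factors help to build intermediates without staying in the finished enzyme. In macrophages the complex is known both for its part in ATP production and as a source of mitochondrial reactive oxygen species during inflammatory activation.

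The sequences around the transcription starts of 5 of these genes are shown because the motif counts given with the promoters refer to them. Ndufa9, Ndufv2 and Ndufaf5 were lower in SKI-II, while Ndufs3 and Ndufa11 are the core and accessory genes with the log2 fold change nearest 0. Each runs 5′ to 3′ on the strand of the gene from 150 bases before the start to 30 after it, from RefSeq on GRCm38.p6. Capitals mark matches to the motifs searched, which are the antioxidant response element core TGACNNNGC in Ndufa9, Ndufv2 and Ndufa11, the NRF1 motif GCGCATGC in Ndufaf5 and Ndufa11, and the GABPA motif CCGGAAGT in Ndufs3, on either strand.
Ndufa9 (chr6:126849115-126849294, minus strand): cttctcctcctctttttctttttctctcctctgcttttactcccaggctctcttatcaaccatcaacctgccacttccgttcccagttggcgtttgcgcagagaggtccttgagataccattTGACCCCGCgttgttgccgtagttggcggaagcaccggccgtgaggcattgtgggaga
Ndufv2 (chr17:66101530-66101709, minus strand): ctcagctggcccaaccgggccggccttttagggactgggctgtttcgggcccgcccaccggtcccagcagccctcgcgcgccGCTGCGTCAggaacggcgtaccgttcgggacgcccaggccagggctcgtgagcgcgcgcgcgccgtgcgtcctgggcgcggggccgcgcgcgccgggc
Ndufaf5 (chr2:140170496-140170675, plus strand): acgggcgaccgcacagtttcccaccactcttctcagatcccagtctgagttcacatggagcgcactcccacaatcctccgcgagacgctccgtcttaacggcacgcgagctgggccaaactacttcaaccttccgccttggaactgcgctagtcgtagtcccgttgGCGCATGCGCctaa
Ndufs3 (chr2:90904692-90904871, minus strand): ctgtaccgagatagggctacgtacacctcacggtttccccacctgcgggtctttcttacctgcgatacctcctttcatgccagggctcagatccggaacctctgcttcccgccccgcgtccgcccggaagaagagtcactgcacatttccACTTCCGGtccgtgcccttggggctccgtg
Ndufa11 (chr17:56717612-56717791, plus strand): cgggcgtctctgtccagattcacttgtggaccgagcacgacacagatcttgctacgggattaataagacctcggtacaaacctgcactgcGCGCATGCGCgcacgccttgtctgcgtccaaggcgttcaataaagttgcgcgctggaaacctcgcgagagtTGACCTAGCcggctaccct

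The DMSO libraries held 12495957 to 17223480 counts and the SKI-II libraries 14213950 to 20050677. Values are given as normalized counts, which are counts divided by the library size after TMM scaling and put on the scale of the mean library. A log2 fold change is that of SKI-II over DMSO, and a gene was called when the quasi-likelihood test of edgeR gave an adjusted p below 0.05 after Benjamini-Hochberg adjustment over the 12274 genes tested. The label of the cells was checked with macrophage markers. All 8 macrophage markers were detected, with a summed level of 135208 to 200354 normalized counts in DMSO and 68469 to 108657 in SKI-II. Lyz2 carried this difference, since without it the sums overlapped, at 45132 to 49780 in DMSO and 44325 to 47374 in SKI-II. Fcgr1 was higher, with a log2 fold change of 2.17, and Lyz2 (-1.26), Itgam (-0.93) and Adgre1 (-0.92) were lower, while Ptprc, Cd68, Csf1r and Spi1 were not called. Of 9 markers of other cell types, Epcam, Krt8 and Ncr1 had no counts, and all but S100a8 had a mean under 10 counts. In RNA from whole cultures, fewer cells of a type and less RNA per cell cannot be told apart, and the part of the marker changes in the values below was not tested.

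Nuclear complex I genes were lower or not called after SKI-II, and none was called higher. Of the 48 genes, 44 had enough counts for the test, and 14 of these were lower (31.8%, against 19.7% of all tested genes), 0 higher (against 18.4%) and 30 not called. By DESeq2 and by limma-voom the counts were also 14 lower and 0 higher, and at an unadjusted p below 0.05 edgeR had 17 lower and 1 higher, Ndufaf1. The median log2 fold change of the 44 genes was -0.24, that of all tested genes was 0.00, and 33 of the 44 lay below 0. In 20 genes (45.5%, against 25.5% of all tested genes) all SKI-II libraries were below all DMSO libraries. The order was the opposite in 1 of the 44 genes, Ndufaf1, against 24.8% of all tested genes, and in 23 the groups overlapped. None of the 44 was called by edgeR, DESeq2 or limma-voom with a log2 fold change below -1, as 7.44% of all tested genes were by edgeR, or above 1, as 8.28% were. Without SKI-II replicate 3, Ndufaf5 passed -1, at -1.03. The number of lower genes rested in part on single libraries, since it was 7 without DMSO replicate 2, 9 without DMSO replicate 3, 8 without SKI-II replicate 1 and 8 without SKI-II replicate 2.

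The classes differed in how many members were called, and no test between classes was made. Among the core subunits 5 of 6 were lower, with a median of -0.59, and 3 of 6 without DMSO replicate 2 or without SKI-II replicate 2. Among the 30 accessory genes tested 8 were lower, with a median of -0.23, and among the 8 assembly factors 1 was lower, with a median of 0.04. The share lower was thus 83.3%, 26.7% and 12.5%, against 19.7% of all tested genes, which the accessory and assembly shares lie near. The accessory count was 3 without replicate 2 or 3 of DMSO or replicate 1 of SKI-II, and 5 without SKI-II replicate 2. The summed core subunits held 9899 to 12589 normalized counts in the DMSO libraries and 7003 to 8323 in the SKI-II libraries. The accessory genes summed to 26311 to 32550 against 21035 to 25917, also without overlap, and the assembly factors to 2120.3 to 2247 against 1806 to 2287, with overlap.

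**Figure D1:**
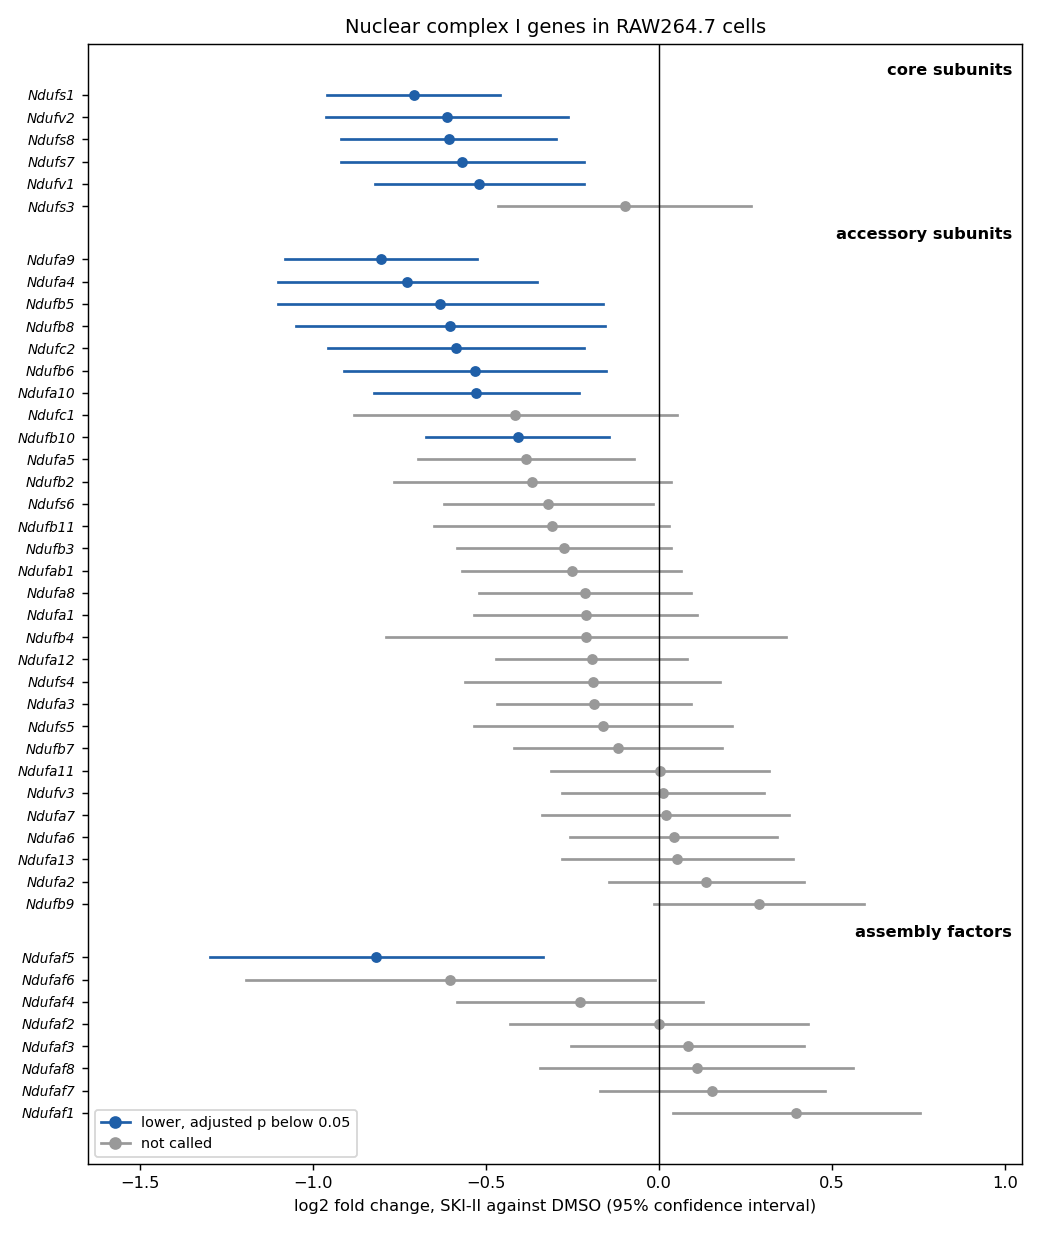
Each point is the log2 fold change of a tested gene in SKI-II against DMSO on the horizontal axis, and each line is its 95% confidence interval from edgeR, with 3 libraries per group. Blue marks the 14 genes called lower and grey the 30 not called. Ndufaf5 and Ndufa9 stand farthest to the left, at -0.82 and -0.80, and no gene to the right of 0 was called.

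The core subunits at the site of NADH oxidation were lower. Ndufv1 (chromosome 19, 4007384 to 4012806), which binds NADH and the flavin, had 2017, 2485 and 2749 normalized counts with DMSO against 1639, 1622 and 1794 with SKI-II, without overlap. Its log2 fold change was -0.52 (SE 0.14, adjusted p = 0.0132 by edgeR), and the call was lost without DMSO replicate 2 or SKI-II replicate 2, with an adjusted p of up to 0.0564. Its partner Ndufv2 (chromosome 17, 66078638 to 66101559), which holds a cluster beside the flavin, had 1301, 1298 and 1654 against 777, 927 and 1076. The groups did not overlap, and the log2 fold change was -0.61 (SE 0.16, adjusted p = 0.0123). Ndufs1 (chromosome 1, 63143596 to 63176833), the large subunit that takes over several of the clusters, had 2642, 2482 and 2814 against 1517, 1674 and 1666. It had the smallest SE of the core genes, with a log2 fold change of -0.71 (SE 0.11, adjusted p = 0.00102). It stayed between -0.76 and -0.65 under the 14 alternative settings, each with an adjusted p below the threshold.

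The cluster-bearing subunits nearest to ubiquinone, Ndufs8 and Ndufs7, changed by similar amounts. Ndufs8 (chromosome 19, 3908863 to 3912774) had 1801, 2230.1 and 2474 normalized counts with DMSO against 1330.4, 1422 and 1513 with SKI-II, a log2 fold change of -0.61 (SE 0.14, adjusted p = 0.00704 by edgeR). Ndufs7 (chromosome 10, 80249121 to 80256794) had 1418, 1749 and 1845 against 1017, 1009 and 1351, a log2 fold change of -0.57 (SE 0.16, adjusted p = 0.0173). In both genes all SKI-II libraries were below all DMSO libraries, with SKI-II replicate 3 of Ndufs7 closest to the DMSO range. The call of Ndufs7 was lost without replicate 2 of DMSO or without replicate 1 or 2 of SKI-II, with an adjusted p of up to 0.0755, and that of Ndufs8 was kept in all 14 alternatives.

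Ndufs3 was the core subunit not called. Its protein sits in the matrix arm and carries no redox cofactor. The gene (chromosome 2, 90894634 to 90904827) had 719.7, 866 and 1055 normalized counts in DMSO against 723, 818 and 923 in SKI-II, where the SKI-II range lay inside the DMSO range. Its log2 fold change of -0.10 had a 95% interval of -0.46 to 0.27 (adjusted p = 0.67 by edgeR). Without DMSO replicate 3 it was 0.05. Reads of Ndufs3 could be split with the processed pseudogene Gm12251, whose transcript matches it over 792 bases at 98.6% identity and which held 12 counts over the 6 libraries, against 5127 for Ndufs3.

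**Figure D2:**
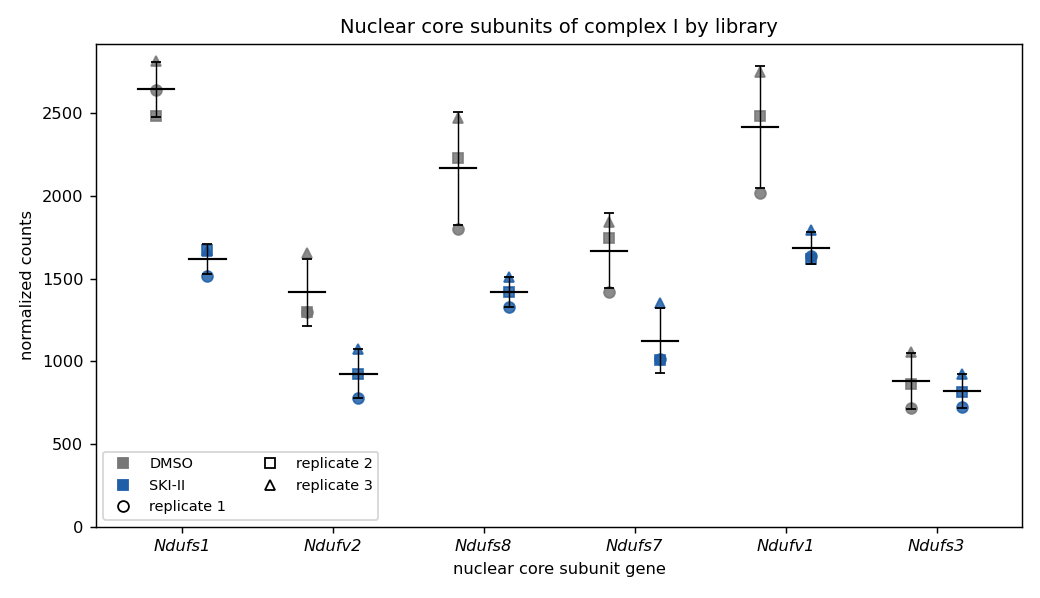
Normalized counts of the 6 nuclear core subunit genes on the vertical axis, with 1 point per library (grey, DMSO; blue, SKI-II), a horizontal bar at the mean and error bars of 1 SD (n = 3). The groups are apart for every gene except Ndufs3, and for Ndufs1 they lie at 2482 to 2814 against 1517 to 1674.

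Ratios of counts within a library do not depend on scaling between libraries. DMSO libraries held 2.67 to 3.67 Ndufs1 counts per Ndufs3 count, and SKI-II libraries 1.80 to 2.10. Ndufv1 per Ndufs3 count went from 2.61 to 2.87 in DMSO to 1.94 to 2.27 in SKI-II. Neither pair of ranges overlapped, the mean log2 ratio differed by -0.62 and -0.42, and the exact permutation test, two-sided, gave p = 0.1 for each, the smallest value that 3 against 3 libraries can give. For Ndufs1 per Ndufv1 count, both called lower, the ranges of 0.998 to 1.31 and 0.926 to 1.03 overlapped (difference of the mean log2 ratio -0.20, p = 0.3 by the same exact test). The pairs with Ndufs1 were chosen after its values were seen. Each ratio over Ndufs3 sets a gene called lower over the core gene not called. These ratios therefore restate those calls and are no further support for them.

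Of the 8 accessory genes called lower, 6 belong to the membrane arm, Ndufa9 belongs to the matrix arm and Ndufa4 to neither. Ndufa9, which belongs to the matrix arm near its junction with the membrane arm, was the one called in that arm, where 9 accessory genes were tested. It had 1989, 2162 and 2466 normalized counts in DMSO against 1187, 1349 and 1253 in SKI-II (chromosome 6, 126821721 to 126849136). The SKI-II libraries lay close together and far below the DMSO libraries, with a log2 fold change of -0.80 (SE 0.12, adjusted p = 0.000893 by edgeR). Against Ndufa12, a matrix-arm accessory gene that was not called (-0.19, adjusted p = 0.246), DMSO libraries held 1.38 to 1.45 Ndufa9 counts per Ndufa12 count and SKI-II libraries 0.862 to 0.998 (p = 0.1, exact permutation test as above). With the core subunits counted in, 6 of the 15 matrix-arm genes were lower (40.0%, against 19.7% of all tested genes), with a median log2 fold change of -0.32. Ndufa12 also shares 402 bases at 99.5% identity with the processed pseudogene Gm15920, and was chosen for this pair after its value was seen. The ratio of Ndufa9 to Ndufa12 thus restates the call of Ndufa9 and is no further support for it.

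In the membrane arm 6 of the 19 genes tested were lower (31.6%, against 19.7% of all tested genes), all of them accessory, and the median log2 fold change was -0.27. Ndufa10 had 1701, 1811 and 2188 normalized counts in DMSO against 1243, 1273 and 1435 in SKI-II, without overlap. The log2 fold change was -0.53 (SE 0.13, adjusted p = 0.0113 by edgeR), and it was the membrane-arm gene whose call was kept in all 14 alternatives. Ndufb10 had 1134, 1194 and 1237 against 819, 944 and 922, the smallest change of the called genes at -0.41 (adjusted p = 0.0215). Ndufc2, at the base of the arm, had 1054, 1259.7 and 1491 against 749, 782 and 1000.5, a log2 fold change of -0.59 (adjusted p = 0.0191). In these genes the lowest DMSO library still lay above the highest SKI-II library.

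The other membrane-arm genes called were Ndufb5, Ndufb6 and Ndufb8, structural subunits of the proton-pumping part. Ndufb5 had 413, 488 and 583 normalized counts in DMSO against 248, 294 and 412 in SKI-II, where the highest SKI-II library came within 1 count of the lowest DMSO library. Its log2 fold change was -0.63 (adjusted p = 0.0381 by edgeR). Ndufb6 had 704, 782 and 896 against 427, 624 and 596, a log2 fold change of -0.53 (adjusted p = 0.0323). Ndufb8 had 1402, 1689 and 2101 against 855, 1151 and 1409, with overlap between SKI-II replicate 3 and DMSO replicate 1, and a log2 fold change of -0.60 (adjusted p = 0.0382). These 3 calls, and those of Ndufb10 and Ndufc2, were each lost when replicate 2 or 3 of DMSO or replicate 1 of SKI-II was left out, and those of Ndufb5, Ndufb8 and Ndufc2 also without SKI-II replicate 2, with an adjusted p of up to 0.123. Upper-quartile scaling ended the calls of Ndufb5 and Ndufb8, and testing without a filter that of Ndufb10. With these libraries left out, 1 to 3 membrane-arm genes were called. Exons of Ndufb6 overlap Smim27 on the opposite strand over 39% of their length and those of Ndufb5 overlap Mrpl47 over 12.3%, and since no source used here states the strand setting of the counting, the values of both genes are uncertain.

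Ndufa4 is listed with the accessory genes by its symbol, although its protein is now counted as a subunit of cytochrome c oxidase, complex IV. It had 1238, 1290.0 and 1684 normalized counts in DMSO against 694, 975 and 875 in SKI-II (chromosome 6, 11900292 to 11907497), without overlap. The log2 fold change was -0.73 (SE 0.17, adjusted p = 0.00747 by edgeR), and without it 13 genes of the list were lower. Its paralog Ndufa4l2, known as a hypoxia-induced gene, was too low for the test, with 3, 2 and 0 counts with DMSO against 0, 6 and 8 with SKI-II. The pseudogene Ndufb4c had 2 counts over the DMSO libraries and 3 over the SKI-II libraries, Ndufs6b had 1 count in all, and Ndufa11b had none. These 4 genes account for the difference between the 48 listed and the 44 tested.

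The 22 accessory genes not called had log2 fold changes from -0.41 for Ndufc1 to 0.29 for Ndufb9. Ndufa11, which helps to hold the membrane arm together, was nearest to 0, with 337, 378 and 378 normalized counts in DMSO against 370.4, 344 and 380.5 in SKI-II. The libraries of both groups were intermixed, and the 95% interval of its log2 fold change was -0.31 to 0.32 (adjusted p = 0.992 by edgeR). Ndufb9, named after its values were seen, was the highest of the accessory genes, with 1289, 1375 and 1637 against 1559.8, 1771 and 1919.5 and a log2 fold change of 0.29 (adjusted p = 0.123). Its groups overlapped, and 19.5% of its exon length is shared with the gene Gm49356 on the same strand. In 7 of the 22 (Ndufa1, Ndufa3, Ndufa5, Ndufab1, Ndufb2, Ndufb3 and Ndufs6) all SKI-II libraries were below all DMSO libraries although the gene did not pass the threshold (31.8%, against 10.1% of all tested genes that were not called), and 7 others lay above 0 (Ndufa2, Ndufa6, Ndufa7, Ndufa11, Ndufa13, Ndufb9 and Ndufv3). Ndufa5 came closest to the threshold, with 424, 439.7 and 448 against 332, 307 and 364 (log2 fold change -0.39, adjusted p = 0.0529).

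Among the assembly factors, Ndufaf5 was called lower. Its protein hydroxylates an arginine of the Ndufs7 subunit. The gene (chromosome 2, 140170649 to 140203689) had 267, 307 and 352 normalized counts in DMSO against 131, 172 and 221 in SKI-II, without overlap. The log2 fold change was -0.82 (SE 0.22, adjusted p = 0.0142 by edgeR), with an adjusted p of 0.0508 without SKI-II replicate 2. Its partner Ndufaf8 had 113, 104 and 113 against 112, 112 and 131 and was not called (0.11, 95% interval -0.34 to 0.56). Ndufaf6, which acts early in assembly of the membrane arm, had 186, 248 and 275 against 102, 157 and 205 and also was not called (-0.60, adjusted p = 0.0993), although it passed without DMSO replicate 1 (-0.76) or SKI-II replicate 3 (-0.86) and lay closer to 0 without SKI-II replicate 1 (-0.39, adjusted p = 0.253) or DMSO replicate 3 (-0.48, adjusted p = 0.228).

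The remaining assembly factors lay closer to 0 or above it. Ndufaf2, a paralog of Ndufa12 that acts late in assembly, had 144, 139 and 162 normalized counts in DMSO against 135, 169 and 141 in SKI-II. Its log2 fold change of -0.00024 took either sign under the alternatives, and 65.6% of its exon length overlaps B230220B15Rik on the opposite strand. Ndufaf1, which belongs to the membrane-bound MCIA assembly complex and was named after its values were seen, had 256, 227 and 207 against 293, 293 and 323. All SKI-II libraries exceeded the DMSO libraries, but the log2 fold change of 0.40 did not pass the test (95% interval 0.04 to 0.75, adjusted p = 0.0757 by edgeR). Ndufaf7, a methyltransferase, had a log2 fold change of 0.15 (adjusted p = 0.441), and Ndufaf3 and Ndufaf4, which act together on the matrix arm, had 0.08 and -0.23 (adjusted p = 0.701 and 0.289).

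Levels can be compared between genes only per length, so each mean was also expressed per kilobase of the shortest principal transcript and per 1000000 counts of the scaled library. On this scale the core subunits in DMSO ranged from 52.1 for Ndufv2 to 173 for Ndufs8, with a median of 77.2, and the accessory genes from 16.3 for Ndufb4 to 194 for Ndufa4, with a median of 72.3. The assembly factors were low throughout, from 8.28 for Ndufaf4 to 16.5 for Ndufaf5. In SKI-II the median level was 56.1 for the core subunits, 60.0 for the accessory genes and 11.2 for the assembly factors. Ndufs1 went from 63.7 to 39.0 on this scale, and Ndufs3 from 52.4 to 48.9. Ndufs1 thus lay above Ndufs3 in DMSO and below it in SKI-II, while Ndufs8 was the highest core subunit in both groups. Across the 44 genes the level per length in DMSO and the log2 fold change had a Spearman correlation of -0.300, as a description only, since the same DMSO libraries enter both. Within the 30 accessory genes alone it was -0.135.

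The libraries of each group also differed from one another in a way that many complex I genes shared. DMSO replicate 3 was the highest DMSO library in 37 of the 44 genes (84.1%, against 42.0% of all tested genes), and DMSO replicate 1 the lowest in 31. SKI-II replicate 1 was the lowest SKI-II library in 34 of the 44 (77.3%, against 35.1%), and SKI-II replicate 3 the highest in 31. SKI-II replicate 1 also had the lowest summed macrophage markers, at 68469 normalized counts, but not when Lyz2 was left out of the sum (44849, against 44325 in SKI-II replicate 3). The spread within groups therefore moved in the same direction for most of these genes, and their changes are not independent of one another.

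**Figure D3:**
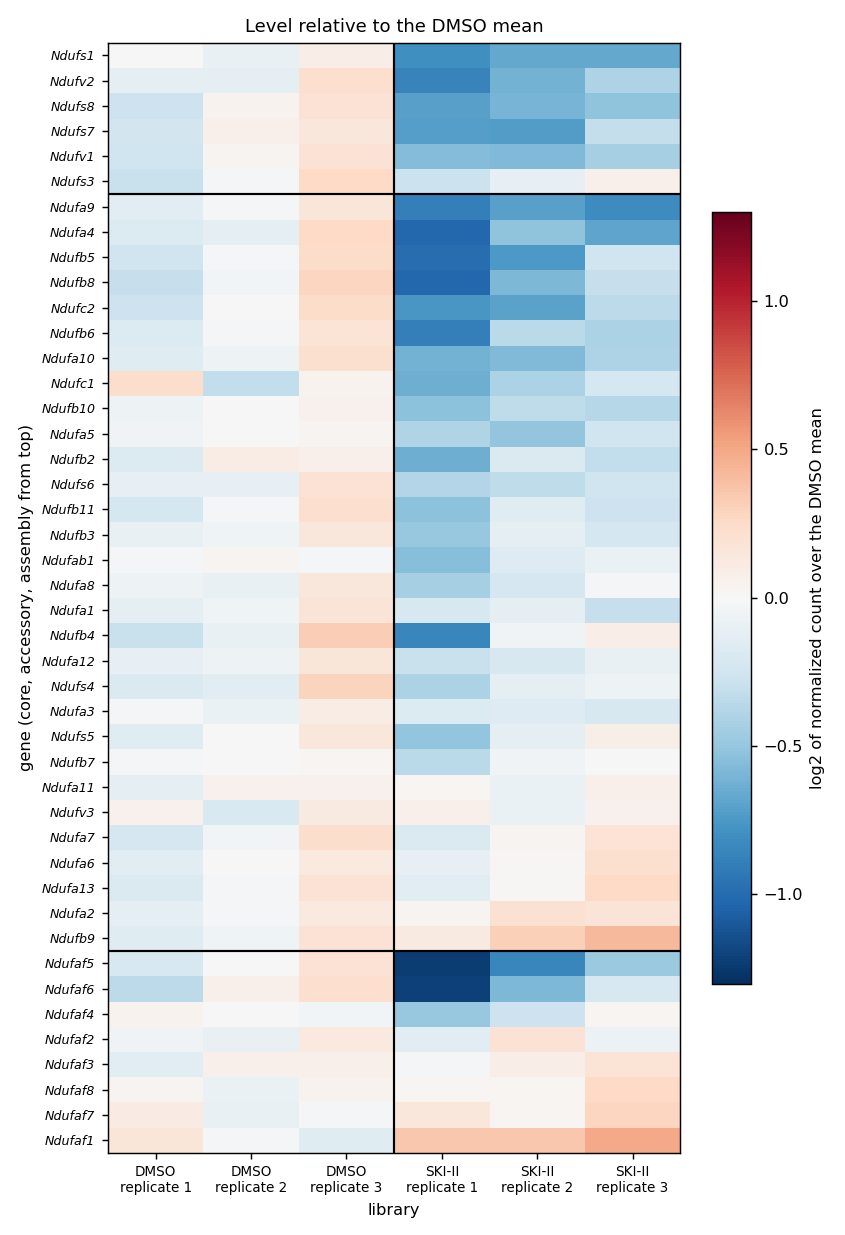
Colours show the log2 of the normalized count over the DMSO mean for the 44 tested genes (vertical axis, grouped as core, accessory and assembly and ordered by log2 fold change) in the 6 libraries (horizontal axis). Ndufs1 and Ndufa9 lie below the DMSO mean in the 3 SKI-II libraries, SKI-II replicate 1 is the bluest column, and Ndufb9 and Ndufaf1 lie above the DMSO mean in the 3 SKI-II libraries.

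Transcripts of the complex I subunits encoded by mitochondrial DNA went the other way. Of these 7 genes 5 were tested, 3 were higher (60.0%, against 18.4% of all tested genes) and 0 lower (against 19.7%), with a median log2 fold change of 0.64. Too low for the test were mt-Nd3, with 1 to 7 counts in each library, and mt-Nd4l, with 1 to 10. DESeq2 gave 4 higher, limma-voom 3 and an unadjusted p below 0.05 with edgeR 4, each with 0 lower. mt-Nd4, a proton-pumping subunit, had 6879.7, 6047 and 5294 normalized counts in DMSO against 10884, 9769 and 10162 in SKI-II. All SKI-II libraries exceeded all DMSO libraries, with a log2 fold change of 0.76 (SE 0.14, adjusted p = 0.00222 by edgeR). mt-Nd5 and mt-Nd6 had log2 fold changes of 0.60 and 0.64 (adjusted p = 0.00902 and 0.00197), and the call of mt-Nd5 was lost without DMSO replicate 2. mt-Nd6 is encoded on the strand opposite to mt-Nd5, and since the strand setting is not given, it is unknown whether reads of the strands were kept apart. mt-Nd1 and mt-Nd2 had 0.58 and 0.64, with overlapping groups, and were not called (adjusted p = 0.155 and 0.1003), but all 5 were called without DMSO replicate 1, without SKI-II replicate 3 or without a filter.

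As a description of the 2 changes put together, for a pair chosen after its values were seen, DMSO libraries held 1.88 to 2.60 mt-Nd4 counts per Ndufs1 count and SKI-II libraries 5.84 to 7.17, and the difference of the mean log2 ratio was 1.47. Transcripts from the mitochondrial genome as a whole made up 1.07% to 1.25% of the counts in DMSO and 1.38% to 1.71% in SKI-II, while the Nduf genes described made up 0.250% to 0.278% and 0.188% to 0.224%. Between the groups, the mitochondrial share, of which the mt-Nd genes are part, was thus higher in SKI-II, and the share of nuclear complex I counts was lower. Within each group both shares rose together from replicate 1 to replicate 3.

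The other complexes of the chain were set beside complex I. Of 38 nuclear genes for complexes II to V, 28 were lower and 0 higher, with a median log2 fold change of -0.61, against -0.59 for the core subunits. DESeq2 and limma-voom gave the same counts and none was higher at an unadjusted p below 0.05, while 1 gene, Uqcrq, was called higher without SKI-II replicate 1. The largest decreases were those of the ATP synthase genes Atp5a1, with a log2 fold change of -1.08 (adjusted p = 0.000587 by edgeR), and Atp5g3, with -0.94 (adjusted p = 0.00226). Uqcrb of complex III and Cox5b of complex IV had the smallest decreases among those called, at -0.40 and -0.38 (adjusted p = 0.0314 and 0.0282), and each call was lost without any single replicate among 2 and 3 of DMSO and 1 and 2 of SKI-II, as well as under upper-quartile scaling and with no filter. Of the Nduf genes tested 31.8% were lower, against 73.7% in complexes II to V and 19.7% of all tested genes. By class the share was 83.3% of the core, 26.7% of the accessory and 12.5% of the assembly genes. The list for complexes II to V was not split by class. Ndufa4, now counted with complex IV, is among the 8 lower accessory genes. No test between these lists was made.

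Assembly factors of complex I with other names moved in both directions. Of 11 genes 2 were higher (18.2%, against 18.4% of all tested genes) and 3 lower (27.3%, against 19.7%), with a median of -0.24, so these shares lay near those of all genes. Tmem126a, which takes part in building the membrane arm around mt-Nd4, had 216, 234 and 252 normalized counts in DMSO against 401, 454 and 458 in SKI-II. The groups were far apart, with a log2 fold change of 0.91 (SE 0.15, adjusted p = 0.00125 by edgeR). Foxred1 was higher at 0.39, with an adjusted p of 0.0497 just inside the threshold, and it was not called by DESeq2, by limma-voom, with no filter or without replicate 1 or 2 of DMSO or replicate 2 or 3 of SKI-II. Tmem186, Ecsit and Acad9, which belong to the MCIA complex together with Ndufaf1, were lower, with log2 fold changes of -0.81, -0.58 and -0.58 (adjusted p = 0.00833, 0.00596 and 0.0107). Tmem126b, also of the MCIA complex, and Timmdc1, which associates with it, had -0.27 and 0.17 and were not called (adjusted p = 0.228 and 0.358). Acad9, Tmem126b and Timmdc1 were named after their values were seen, and the adjusted p of Acad9 was 0.0552 without DMSO replicate 2.

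Regulators known to act on respiratory chain genes were lower or not called. Of 11 tested, 5 were lower (45.5%, against 19.7% of all tested genes) and 0 higher (against 18.4%), with a median log2 fold change of -0.39. DESeq2 and limma-voom gave the same counts, and at an unadjusted p below 0.05 the counts were 6 and 0. The coactivator gene Ppargc1a had no counts in any library. Ppargc1b, its relative that coactivates mitochondrial genes, had 491, 475 and 401 normalized counts in DMSO against 249.5, 216 and 235 in SKI-II, clearly apart. Its log2 fold change was -0.97 (SE 0.15, adjusted p = 0.00103 by edgeR). Gabpa and Nrf1, transcription factors of nuclear respiratory genes, had -0.52 and -0.45 (adjusted p = 0.00724 and 0.0324). Tfb2m and Polrmt, which transcribe mitochondrial DNA, had -0.95 and -0.39 (adjusted p = 0.0172 and 0.0387), while Tfam, which packages it, was not called (-0.13, adjusted p = 0.497). The number of lower regulators was 3 without DMSO replicate 2, 2 without SKI-II replicate 1 and 3 without SKI-II replicate 2. The calls of Nrf1 and Polrmt were lost in each of these cases, that of Nrf1 also without DMSO replicate 3, and that of Tfb2m without SKI-II replicate 1. Upper-quartile scaling also ended the calls of Nrf1 and Polrmt, and testing with no filter that of Polrmt.

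**Figure D4:**
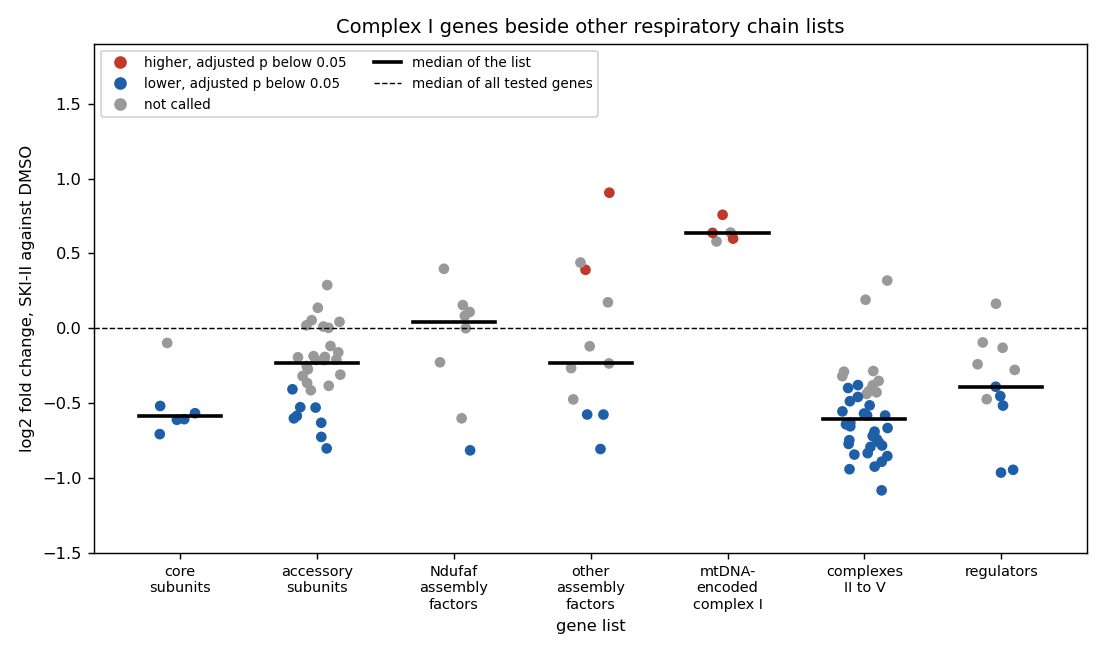
Each point is the log2 fold change of a tested gene in SKI-II against DMSO on the vertical axis, by gene list on the horizontal axis, with a bar at the median of the list and a dashed line at the median of all tested genes. The core subunits and complexes II to V have medians of -0.59 and -0.61, the 5 genes encoded by mitochondrial DNA lie between 0.58 and 0.76, and the Ndufaf assembly factors centre on 0.04.

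The promoters of these genes were searched for motifs of factors tied to respiratory genes or to the oxidative stress response. RefSeq windows from 250 bases before to 50 after the start were found for 40 of the Nduf genes, and for 13 of the 14 that were lower, the exception being Ndufs1. The NRF1 motif GCGCATGC occurred in 5 of the 40 (12.5%, against 3.05% of 27025 genes), in 1 of the 13 lower genes (7.69%) and in 4 of the 27 uncalled genes (14.8%). In Ndufaf5, which was lower, it lies 16 bases after the start, and in Ndufa11, which was not called, 60 bases before it, in both cases as overlapping matches on the 2 strands. The YY1 motif AAGATGGC occurred in 20% of the 40 genes against 3.19% of all, in 23.1% of the lower genes and in 18.5% of those not called. The antioxidant response element core TGACNNNGC occurred in 22.5% against 14.0% of all, in 23.1% of the lower and 22.2% of the uncalled genes. It lies 28 bases before the start of Ndufa9 and 68 before that of Ndufv2. CCGGAAGT of GABPA was found in Ndufs3 alone (2.5%, against 4.31%), and TCAAGGTCA of ERRA in none (against 0.466%). Windows were also found for 29 genes of complexes II to V. Of these, 24.1% held the NRF1 motif, 13.8% that of GABPA, and 6.9% each that of ERRA, YY1 and the antioxidant response element core. These shares rest on few genes and were not tested.

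Several of these genes cannot be counted fully apart from their neighbours or copies. Exons of 18 of the 48 genes overlap another annotated gene, by more than 10% of their length in 7 of them. Besides Ndufs3 and Ndufa12, a stretch of at least 200 bases at 95% identity or more was found elsewhere for Ndufab1, Ndufb3, Ndufb4, Ndufb11, Ndufs5 and Ndufs6, all in processed pseudogenes. None of the 14 genes called lower was among these 8.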

How the data were processed

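Poly(A) RNA of RAW264.7 cells was sequenced in 3 DMSO and 3 SKI-II libraries, grouped by their labels. Per the submitters' processing notes, the authors used Trimmomatic 0.36, STAR 2.5.2b, featureCounts of Subread 1.5.2 and DESeq2, and deposited raw read counts per Ensembl gene without normalization. For genome build, annotation release and strand setting: not given in the sources used here.

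GENCODE M21 named 49056 of the 49315 genes. The genes, lists, tests and rules were chosen with earlier results of these data known, so no list is independent evidence. For 1 Nduf gene and 1 marker, results are not reported here, and they enter no count or sum over a list. Coa1 matched no row. The fit was made over the whole table with edgeR 4.0.16 in R 4.3.3 (quasi-likelihood F test, TMM scaling, filterByExpr at its default minimum of 10 counts and total of 15, Benjamini-Hochberg adjustment over 12274 genes). Genes were named when core, called, nearest 0 in their class or removed by the filter, and from other lists the 2 largest and 2 smallest called changes and each called regulator. Acad9 and the uncalled genes named outside this rule (Tmem126b, Timmdc1, Ndufa5, Ndufa12, Ndufb9, Ndufc1, the other Ndufaf genes, mt-Nd1, mt-Nd2, Uqcrq and Tfam) were chosen after their values were seen. Every pair of libraries within a group differed beyond sampling noise (chi-square of 15.4 to 58.1 for each degree of freedom). The programs were tested on simulated data. There edgeR recovered 9 of 100 genes changed by a log2 of 0.5 and 77 of 100 changed by 1, with 6 false calls. DESeq2 recovered 24 and 91, with 25 false calls, and limma-voom 9 and 74, with 6. Fewer genes were changed there than were called here, so the recovery here can differ. A gene not called can therefore still have changed. Alternatives were DESeq2 1.42.0, limma-voom (limma 3.58.1), other scalings and filters, each library left out, the replicate number as a block, and the list without Ndufa4 and Ndufa4l2. Permutation tests used scipy 1.17.1 and figures matplotlib 3.10.9. Promoters came from RefSeq (GRCm38.p6).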

Additional observations from a re-analysis of the deposited data

How the results depend on the processing

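The fitted values of 41 of the named genes were followed under the 14 alternatives, and all but 3 of these 41, Ndufaf2, Ndufa11 and Ndufs3, kept their direction. The other named genes, among them Ndufaf3 and Ndufaf8, were not followed in this way. Ndufaf2 was 0.0024 with DESeq2, 0.00081 with library size alone, 0.00062 with no filter, 0.0079 with RLE scaling, 0.011 with at least 10 counts in every library, 0.060 with upper-quartile scaling, and between -0.10 and 0.067 with a library left out. With a library left out, Ndufa11 lay between -0.067 and 0.046 and Ndufs3 between -0.24 and 0.051. Of the 14 lower genes 6 were called under all 14 alternatives (Ndufs1, Ndufs8, Ndufv2, Ndufa9, Ndufa10 and Ndufa4). With a library left out, 7 to 16 of all genes, 3 to 5 core, 3 to 9 accessory and 0 to 2 assembly genes were lower, and 0 to 1 passed a log2 fold change of -1. Fewer libraries also lowered the calls over all genes, from 38.0% to 26.0% without DMSO replicate 2. Upper-quartile scaling left 12 genes lower, and no filter made Ndufaf6 the second of 2 lower assembly factors.

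The labels tie no replicate number to a shared batch, and a pairing by number is not established. The deviations of same-numbered libraries had correlations of 0.246, 0.0099 and 0.458. Not every library correlated best with its own number. With the number as a block, calls over all genes went from 4668 to 5584, 16 complex I genes were lower, Ndufa5 and Ndufaf6 among them, 2 of them assembly factors, and 1 accessory gene, Ndufb9, was higher, so that 1 of all the genes was higher. In complexes II to V 1 gene, Uqcrq, was then also called higher. Alternatives for the other lists were added after the data were seen. The median SE was 0.18 for the assembly factors and 0.15 for the core subunits. The genome-wide median moved by at most 0.06, under upper-quartile scaling.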
